A study of Mus musculus with 20 samples.

Results

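The EGR family (Egr1, Egr2, Egr3 and Egr4), the NR4A family (Nr4a1, Nr4a2 and Nr4a3), Arc and Npas4 are 9 immediate early genes that neurons switch on in response to synaptic activity. They were taken by symbol from 4 expression tables of mouse cortical neurons, which together list 14700 genes. The tables cover RNA sequencing of primary neurons from embryonic (E15) cortex, grown for 7 days and then held for 12 h in 1 of 2 conditions. Normoxia (N) was fresh medium with 25 mM glucose and 0.2 mM pyruvate in the ordinary incubator, and oxygen-glucose deprivation (OGD), a culture model of ischaemia, was the same base medium without those additions at 1% oxygen. Cultures were wild type (WT) or knockouts (KO) of ciRS-7, a brain-rich circular RNA listed as Cdr1as, and every sample carries the strain label C57BL/6N-Cdr1asem1Nikr. Each of the resulting groups (N_WT and OGD_WT, N_KO and OGD_KO) had 5 libraries. A library is named by the number in its label. Libraries of one genotype that carry the same number in normoxia and in OGD also share a batch label. Of the 9 genes, 8 are listed in all 4 tables, and Egr4 is listed only in the table of the WT libraries and the table of the OGD libraries, so it has no value in N_KO. Both of these tables hold OGD_WT, the group with its highest levels, so Egr4 may be listed only through that group.

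Immediate early genes are transcribed within minutes of calcium entry or growth factor signalling, without new protein synthesis, through factors such as CREB and SRF that are already bound at their promoters. EGR proteins are zinc finger transcription factors, held in check by the corepressors Nab1 and Nab2. NR4A proteins are orphan nuclear receptors that bind DNA without a known ligand. Npas4 is a bHLH-PAS transcription factor that depends strongly on neuronal calcium entry and pairs with Arnt or Arnt2. Arc is the member that encodes no transcription factor: its protein acts at synapses, where it promotes the removal of AMPA receptors.

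The members differ in promoter letters as well as in level. Promoter sequence from RefSeq (GRCm38.p6, whose coordinates are those of mm10) was given for 6 of the 9 members, namely Egr2, Egr4, Nr4a1, Nr4a2, Nr4a3 and Npas4. The windows of 250 bases before each start were searched on both strands. Shown here are the 3 NR4A windows, because these paralogues differed in their response to OGD, and the Egr2 window, because it is the member window that holds an SRF site. Only bases outside annotated exons are printed, 5′ to 3′ on the gene's strand, with each TGACG (the core of a CREB site, CGTCA on the other strand) and each CArG box (the SRF site) in capitals. The Nr4a1 window is chr15:101266596-101266845 (plus strand), the Nr4a2 window is chr2:57124004-57124253 (minus strand), the Nr4a3 stretch of 98 bases is chr4:48045055-48045152 (plus strand), and the Egr2 window is chr10:67537619-67537868 (plus strand).
Nr4a1: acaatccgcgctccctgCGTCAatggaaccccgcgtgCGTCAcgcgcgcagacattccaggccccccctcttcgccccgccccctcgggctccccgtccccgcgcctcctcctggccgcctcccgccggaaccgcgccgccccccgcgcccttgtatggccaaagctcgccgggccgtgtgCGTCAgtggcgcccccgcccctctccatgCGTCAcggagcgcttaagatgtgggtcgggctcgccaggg
Nr4a2: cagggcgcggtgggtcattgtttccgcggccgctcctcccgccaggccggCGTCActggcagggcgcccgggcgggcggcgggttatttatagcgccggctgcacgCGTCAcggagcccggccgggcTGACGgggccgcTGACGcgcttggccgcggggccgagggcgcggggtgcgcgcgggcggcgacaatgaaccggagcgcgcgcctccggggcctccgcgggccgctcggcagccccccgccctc
Nr4a3: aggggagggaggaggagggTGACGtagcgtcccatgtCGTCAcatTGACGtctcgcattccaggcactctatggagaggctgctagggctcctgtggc
Egr2: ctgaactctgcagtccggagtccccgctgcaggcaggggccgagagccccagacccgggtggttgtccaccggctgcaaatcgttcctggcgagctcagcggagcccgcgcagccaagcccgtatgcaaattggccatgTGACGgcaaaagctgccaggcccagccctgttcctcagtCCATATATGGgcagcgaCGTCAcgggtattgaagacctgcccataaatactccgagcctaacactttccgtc
Each of the 6 members had TGACG in at least 1 window, as did 5347 of 27025 genes. Counted per window, 17.8% of 32851 RefSeq promoter windows of this length have it. Nr4a1, Nr4a2 and Nr4a3 each had 4 copies, 1 of the Nr4a3 copies lying outside the printed stretch, while Egr2 (at the start shown), Egr4 and Npas4 had 2. The full palindrome TGACGTCA was in no window of the 6 genes, against 1.55% of all. A CArG box was found only for Egr2, against 1.47% of all windows, and RefSeq lists 5 starts for that gene, 4 of which had one in their window. The EGR site GCGGGGGCG was found only for Nr4a1, against 2.57% of all windows. The hypoxia-response core GCGTG was in the windows of Nr4a1, Nr4a2, Nr4a3, Egr4 and Npas4 (28.2% of all windows), and the alternative core ACGTG was in those of Nr4a3 and of the first start of Egr2 (16.6% of all). The Nr4a3 cores lie in annotated exon, outside the printed stretch, and the ACGTG of the first Egr2 start runs partly into annotated exon. These cores can share bases with TGACG. Such matches describe letters, not binding.

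On the GRCm38 annotation the members lie on 8 chromosomes and none overlaps another annotated gene. Egr2 is at chr10:67535475-67542188, Egr3 at chr14:70077203-70082614 and Egr4 at chr6:85511121-85513589. Nr4a1 is at chr15:101254269-101274795, Nr4a2 at chr2:57106830-57124003 and Nr4a3 at chr4:48045153-48086447. Arc, at chr15:74669083-74672570, shares a chromosome with Nr4a1, and Npas4 is at chr19:4984355-4990316. Values below are given per gene, and which parts of a gene were counted is not stated in the sources used here.

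The reads recovered from the tables came to between 7071506 and 16658618 per library. Cdr1as checked the genotype labels: it had 5 to 16 reads in the N_KO libraries against 700 to 1365 in N_WT, and 2 to 14 in OGD_KO against 545 to 1912 in OGD_WT. All 9 neuronal marker genes were listed and their summed level was high, between 4153.5 and 5540 CPM (reads scaled to one common library size) in N_WT and between 4748 and 4954 in N_KO. None of the 8 microglial markers was listed in any table, nor were the endothelial markers Cldn5, Pecam1 and Flt1. Astrocyte markers (7 of 8 listed) were present at 1046 to 1347 CPM in N_WT. Batch labels divide the libraries unevenly: batch 1 holds 1 WT and 1 KO number, batch 2 holds only KO number 3, and batch 3 (3.1, 3.2 and 3.3) holds 4 WT and 3 KO numbers.

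In normoxia the most abundant member per length was Nr4a3. Each CPM value was divided by the length of the gene's annotated exons in kilobases (CPM per kb) to compare genes. This scale assumes that reads were counted over all those exons. Nr4a3 had a median level of 34.6 CPM per kb in N_WT (range 21.5 to 37.1), followed by Nr4a2 at 13.0 (10.3 to 13.8) and Egr1 at 4.41 (3.68 to 7.23). Npas4 (2.52, from 1.69 to 4.02) and Nr4a1 (2.07, from 1.46 to 2.79) overlapped each other in range, and Arc was lower at 0.830 (0.758 to 1.15). Egr2 (0.370), Egr3 (0.364) and Egr4 (0.274) were the least abundant, and their ranges overlapped. The ranges of Nr4a3 and Nr4a2 were clear of each other and of all lower members in N_WT, while that of Egr1 overlapped the range of Npas4. In N_KO the order of the first 3 was the same, at 27.0, 11.1 and 5.90 CPM per kb.

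Under OGD the order changed. In OGD_WT Egr1 was first at 45.0 CPM per kb (41.2 to 51.2), then Nr4a3 at 30.5 (24.1 to 47.5), Nr4a2 at 28.7 (18.5 to 37.1) and Nr4a1 at 24.4 (18.6 to 27.1). The ranges of these neighbours overlapped, so the 3 NR4A genes, well separated in normoxia, stood at similar levels per length under OGD. Npas4 had 8.92 and Arc 6.59 CPM per kb, with overlapping ranges (6.50 to 12.8 and 4.43 to 8.24). Egr2 had 2.20 CPM per kb, Egr4 0.984 and Egr3 0.811. OGD_KO medians ran in the order Egr1 (52.8), Nr4a3 (31.2), Nr4a2 (27.2), Nr4a1 (21.3), Npas4 (7.81), Arc (6.22), Egr2 (2.62), Egr3 (0.708) and Egr4 (0.496).

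**Figure D1:**
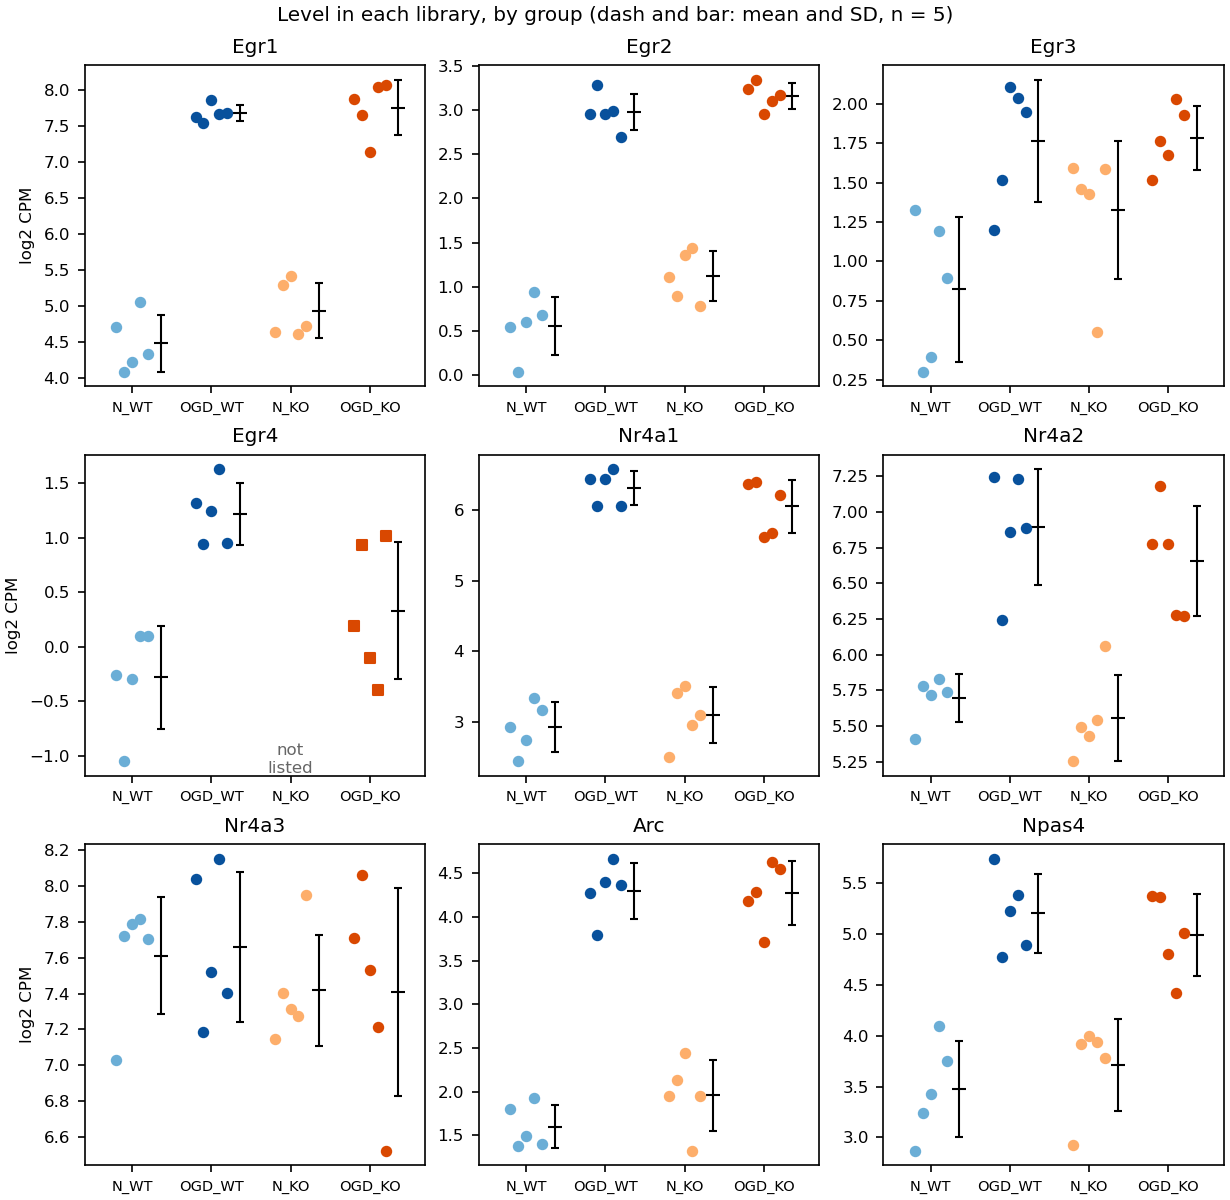
Level of each member in every library on the log2 CPM scale of the tables (vertical axes differ between genes), with groups along the horizontal axis, libraries in the order of their numbers as points, and the mean with SD (n = 5) as a dash and bar. Egr4 in OGD_KO (squares) comes from the table of the OGD libraries. Egr1, Egr2, Nr4a1, Nr4a2, Arc and Npas4 show no overlap between the normoxia and OGD libraries of either genotype, whereas the groups of Nr4a3 overlap.

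The first question was how the members respond to OGD. In WT neurons 8 of the 9 members rose and none fell, at a Benjamini-Hochberg adjusted p under 0.05 over the 14235 genes of that table (limma). Across all those genes 44.3% passed that threshold, and 21.6% of all genes passed it upward. The median log2 fold change of the 9 members was 1.72, against -0.03 over all genes. In KO neurons 6 of the 8 listed members rose and none fell, where 40.9% of 14375 genes passed and 21% passed upward, and the members' median was 1.66 against 0.003 over all genes. For 7 members in WT and 6 in KO every OGD library lay above every normoxia library, as was so for 13.9% and 13.4% of all genes. Egr4 counts among the 8 and the 7 in WT, although it may be listed only through its high OGD_WT values. Called genes with a log2 fold change of at least 2 made up 0.632% of the WT table and 0.57% of the KO table, and Egr1, Egr2, Nr4a1 and Arc were among them in both. The WT and KO responses rest on different libraries.

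Nr4a1 gave the largest response of the 9. Its protein, also called Nur77, is a nuclear receptor that acts as a transcription factor from the moment it is made. Levels in N_WT were 2.93, 2.45, 2.74, 3.35 and 3.16 log2 CPM for libraries 1 to 5, and 6.44, 6.05, 6.43, 6.57 and 6.05 in OGD_WT. In N_KO they were 2.51, 3.41, 3.51, 2.96 and 3.09, against 6.36, 6.40, 5.61, 5.67 and 6.21 in OGD_KO. Every OGD library stood above every normoxia library of its genotype by at least 2.11. The log2 fold change was 3.39 (SE 0.17, 10.5-fold, adjusted p = 1.15e-11, limma) in WT, rank 10 of 14235 genes, and 2.95 (SE 0.20, 7.74-fold, adjusted p = 9.27e-09) in KO, rank 20 of 14375.

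Egr1, the best known EGR factor and a common marker of active neurons, rose almost as far and from a higher base. The N_WT libraries held 4.71, 4.09, 4.22, 5.05 and 4.34 log2 CPM, and the OGD_WT libraries 7.62, 7.54, 7.85, 7.67 and 7.68. N_KO libraries held 4.64, 5.29, 5.42, 4.61 and 4.72, and OGD_KO libraries 7.88, 7.64, 7.13, 8.04 and 8.07. The OGD_WT libraries were tightly grouped (SD 0.11), while OGD_KO spread more widely (SD 0.39) with library 3 lowest. Fold changes were 9.13 in WT (log2 3.19, SE 0.17, adjusted p = 1.15e-11, limma) and 7.04 in KO (log2 2.81, SE 0.20, adjusted p = 1.26e-08).

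Arc followed at 1.80, 1.38, 1.49, 1.92 and 1.41 log2 CPM in N_WT and 4.27, 3.79, 4.40, 4.67 and 4.37 in OGD_WT. In N_KO it stood at 1.95, 2.13, 2.44, 1.32 and 1.95, and in OGD_KO at 4.18, 4.28, 3.71, 4.63 and 4.55. Both genotypes' groups were fully separated, and OGD_KO library 3 was again the lowest of its group. The rise was 6.51-fold in WT (log2 2.70, SE 0.17, adjusted p = 1.71e-10, limma) and 4.97-fold in KO (log2 2.31, SE 0.20, adjusted p = 1.32e-07).

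Egr2, an EGR factor otherwise best known from myelinating Schwann cells, was scarce in normoxia, with 9 to 16 reads per library in N_WT and 18 to 22 in N_KO. Its levels in N_WT were 0.55, 0.04, 0.60, 0.94 and 0.68 log2 CPM, against 2.96, 3.28, 2.96, 2.99 and 2.70 in OGD_WT. KO libraries went from 1.11, 0.90, 1.36, 1.44 and 0.78 in normoxia to 3.23, 3.34, 2.96, 3.10 and 3.17 under OGD. The groups were separated by at least 1.52 in each genotype. Log2 fold changes were 2.42 (SE 0.19, adjusted p = 2.52e-09, limma) in WT and 2.04 (SE 0.17, adjusted p = 6.10e-08) in KO. Counts this low make the fold depend on the constant added before the logarithm, and a smaller constant (a prior count of 0.5 reads) gave 2.78 and 2.27.

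Npas4 ranked lower, at a 3.30-fold rise in WT and 2.43-fold in KO. Normoxia levels were 2.87, 3.24, 3.43, 4.10 and 3.75 log2 CPM in WT and 2.92, 3.92, 4.0001, 3.94 and 3.78 in KO. Under OGD they were 5.74, 4.77, 5.22, 5.39 and 4.89 in WT and 5.37, 5.36, 4.80, 4.42 and 5.00 in KO. The gap between the highest normoxia and the lowest OGD library was 0.68 in WT and 0.42 in KO, so the groups were apart but closer than those of Nr4a1 or Egr1. On the log2 scale the changes were 1.72 (SE 0.21, adjusted p = 1.41e-06, limma) and 1.28 (SE 0.21, adjusted p = 0.000123).

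Nr4a2, also called Nurr1 and known for its role in dopamine neurons, rose about as much in both genotypes. It stood at 5.41, 5.78, 5.72, 5.83 and 5.74 log2 CPM in N_WT and 7.24, 6.24, 6.86, 7.23 and 6.89 in OGD_WT. N_KO libraries had 5.26, 5.49, 5.43, 5.54 and 6.06, and OGD_KO libraries 6.77, 7.18, 6.78, 6.28 and 6.27. The groups did not overlap, by a margin of 0.42 in WT and 0.21 in KO. The log2 fold change was 1.20 (SE 0.17, adjusted p = 1.25e-05, limma) in WT and 1.10 (SE 0.19, adjusted p = 0.000149) in KO.

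Nr4a3, also called Nor1, was the member with no detected change. In N_WT its levels were 7.03, 7.72, 7.79, 7.82 and 7.70 log2 CPM, and in OGD_WT 8.04, 7.19, 7.52, 8.15 and 7.40. In N_KO they were 7.15, 7.40, 7.31, 7.27 and 7.95, and in OGD_KO 7.71, 8.06, 7.53, 7.21 and 6.52. Normoxia and OGD libraries overlapped throughout in both genotypes. Each library held at least 544 Nr4a3 reads. The log2 difference was 0.05 in WT (95% interval -0.35 to 0.45, adjusted p = 0.858, limma) and -0.01 in KO (-0.49 to 0.47, adjusted p = 0.976), and the intervals leave out the log2 change of Nr4a2. OGD libraries were spread more widely than normoxia ones, most of all in OGD_KO (SD 0.58 against 0.31 in N_KO).

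The contrast within the NR4A family was also measured inside each library, as the difference of the log2 CPM of 2 members (with a prior count of 2 reads), a description chosen after their values were seen. Nr4a1 stood 4.73 below Nr4a3 in N_WT, a difference of -4.73 ± 0.48 (SD, n = 5), and -1.35 ± 0.24 in OGD_WT, a shift of 3.38. In KO the difference went from -4.36 ± 0.45 to -1.36 ± 0.62, a shift of 3.003. The difference between Nr4a2 and Nr4a3 shifted by 1.15 in WT and by 1.11 in KO. In each of these cases the normoxia and OGD libraries did not overlap.

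Egr3 and Egr4 were the members with few reads. Egr3 stood at 1.33, 0.30, 0.39, 1.19 and 0.90 log2 CPM in N_WT (9 to 30 reads) and 1.20, 1.52, 2.11, 2.04 and 1.95 in OGD_WT (26 to 44 reads). In N_KO it stood at 1.59, 1.46, 1.43, 0.55 and 1.59, and in OGD_KO at 1.52, 1.77, 1.67, 2.03 and 1.93. Its groups overlapped in both genotypes, and in WT the overlap came from number 1, whose OGD library lay below its normoxia library. The WT change of 0.94 (SE 0.23, adjusted p = 0.00217, limma) passed the threshold and the KO change of 0.46 (SE 0.20, 95% interval 0.03 to 0.88, adjusted p = 0.0780) did not. With the deposited extremes, which lie closer to the other libraries, the KO change was 0.39 and its adjusted p was 0.0325. It was 0.27 without N_KO library 4 and 0.24 when libraries were scaled to their total reads, neither called.

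Egr4 had 1 to 7 reads per N_WT library and 15 to 32 per OGD_WT library. Its levels were -0.26, -1.05, -0.30, 0.10 and 0.10 log2 CPM in N_WT and 1.32, 0.94, 1.24, 1.63 and 0.95 in OGD_WT, with no overlap. The log2 fold change was 1.50 (SE 0.23, adjusted p = 2.81e-05, limma). At such counts it depends on the constant added before the logarithm, and a prior count of 0.5 reads gave 2.25. Since Egr4 may be listed only through its high OGD_WT values, this change and its p are not independent of that listing. In the OGD table the WT libraries had 1.14, 0.75, 1.06, 1.47 and 0.76 log2 CPM, and the KO libraries 0.19, 0.94, -0.11, -0.40 and 1.02, on 4 to 22 reads.

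**Figure D2:**
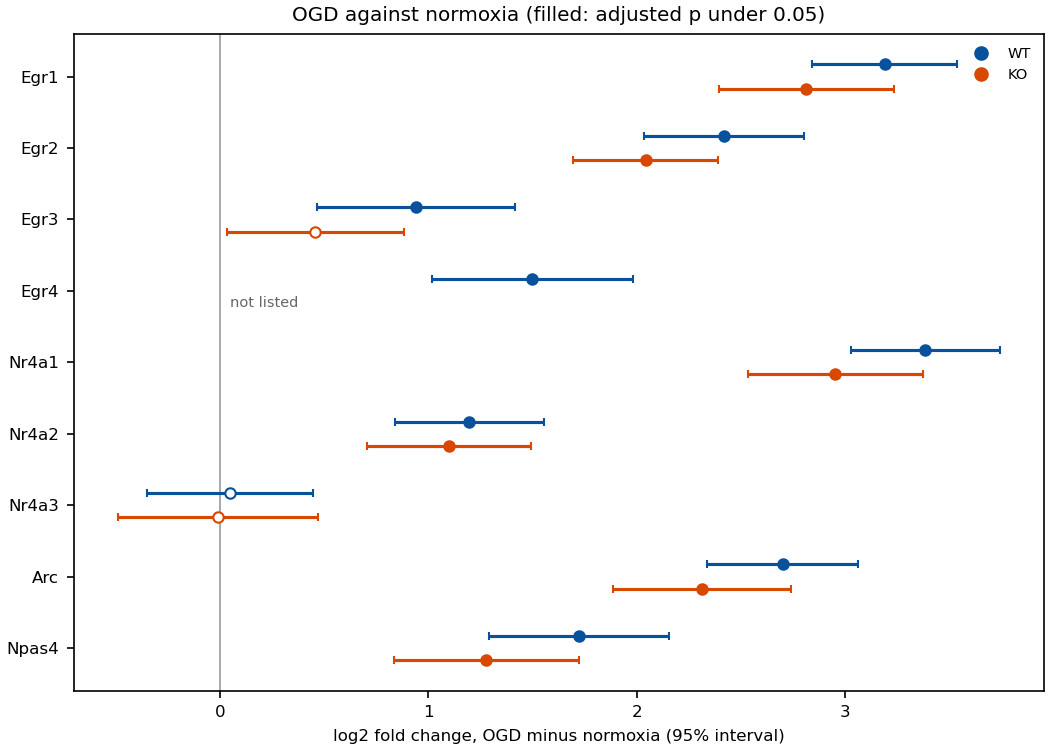
Log2 fold change of each member between OGD and normoxia (horizontal axis) in WT and KO, with 95% intervals and filled points where the adjusted p was under 0.05. Nr4a1 is farthest to the right in both genotypes (3.39 and 2.95), Nr4a3 lies at 0.05 and -0.01, and each KO point lies to the left of its WT point.

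These calls held within batch 3 alone, where 8 members in WT (4 numbers) and 6 in KO (3 numbers) were called. In batch 3 the WT changes ran from 1.04 for Nr4a2 to 3.35 for Nr4a1, and the KO changes from 0.88 for Nr4a2 to 3.04 for Egr1, among the called members. Nr4a3 was at -0.19 in WT and -0.28 in KO there. Scaling libraries to their total reads moved the median of all genes to -0.30 in WT and -0.28 in KO, and the share of called genes that rose from 48.6% to 22.1% in WT and from 51.3% to 21.9% in KO. The same 8 members in WT and 6 in KO stayed higher under that scaling, from 0.80 for Egr3 to 3.15 for Nr4a1 in WT and from 0.81 for Nr4a2 to 2.70 for Nr4a1 in KO.

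Cell type markers moved with the same contrast. The summed neuronal markers ran from 2768 to 5127 CPM in OGD_WT and from 3061 to 3873 in OGD_KO, and 5 of 9 in WT and 6 of 9 in KO fell, led by Slc17a7, a glutamate transporter of synaptic vesicles, at -1.69 and -1.62. Astrocyte markers summed to between 1709 and 2102 CPM in OGD_WT and between 1375 and 2226 in OGD_KO, and 4 of the 7 listed rose and 1 fell in WT, while 3 rose in KO. All 7 proliferation markers rose in both genotypes, by between 0.50 and 1.49 in WT. Progenitor markers summed to 332 to 527 CPM in N_WT and 475 to 1033 in OGD_WT, with 2 of 6 called higher in WT and KO alike. Oligodendrocyte lineage markers had 1 of 7 higher and 2 lower in WT and 3 higher in KO, and of the vascular and fibroblast markers 1 of 2 listed fell in WT and 0 of 3 in KO, at a summed level of at most 9.30 CPM in any library. In bulk RNA, fewer cells of a type and less RNA per cell cannot be told apart, and the part of these shifts in the members' values was not tested.

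The second question was whether the loss of ciRS-7 changes the members. In normoxia no member was called between KO and WT, where 5 of 14152 genes (0.0353%) were called. Unadjusted p fell under 0.05 for Egr1, Egr2 and Egr3, as it did for 1.81% of all genes, and each was higher in KO. The log2 differences were 0.49 for Egr1 (95% interval 0.08 to 0.90), 0.62 for Egr2 (0.17 to 1.06) and 0.55 for Egr3 (0.02 to 1.08), all with an adjusted p of 1.00 (limma). Exact permutation tests gave p = 0.0873, 0.0238 and 0.111 for the 3 genes, two-sided and not adjusted. The KO and WT libraries overlapped for each of the 8 listed members, and were apart for 0.325% of all genes. Arc was 0.40 higher in KO (-0.02 to 0.82), Npas4 0.27 higher (-0.20 to 0.75) and Nr4a1 0.21 higher (-0.21 to 0.63), while Nr4a2 was at -0.10 (-0.41 to 0.21) and Nr4a3 at -0.16 (-0.52 to 0.20).

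With the batch label as a covariate the Egr1, Egr2 and Egr3 differences in normoxia were 0.29, 0.49 and 0.46, and within batch 3 they were 0.48, 0.53 and 0.55. The difference of Nr4a1 went from 0.21 to -0.005 with that covariate, so its direction depends on the batch term.

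Under OGD no member was called between KO and WT either, where 4 of 14185 genes (0.0282%) were called. Egr4 had the largest difference and the only unadjusted p under 0.05, a rate of 1.78% over all genes. It was lower in KO at -0.71 (SE 0.27, 95% interval -1.28 to -0.14, adjusted p = 1.00, limma; exact permutation p = 0.0794), and the values overlapped because OGD_KO libraries 2 and 5 stood at WT levels. Groups were apart for 0.345% of all genes and for none of the members. In batch 3 this difference was -0.49, and with the batch covariate it was -0.47. Since Egr4 may be listed only through its high OGD_WT values, its p here is not independent of that listing. Egr1 was at 0.09 (-0.28 to 0.47), Egr2 at 0.20 (-0.12 to 0.51), Egr3 at 0.03 (-0.40 to 0.45) and Arc at -0.01 (-0.42 to 0.39). Npas4 (-0.19, from -0.63 to 0.25), Nr4a1 (-0.25, from -0.63 to 0.14), Nr4a2 (-0.22, from -0.66 to 0.22) and Nr4a3 (-0.24, from -0.77 to 0.29) were lower in KO by less than the spread between libraries. None of these intervals reaches the log2 size that OGD itself had on Egr1, Nr4a1 or Arc.

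**Figure D3:**
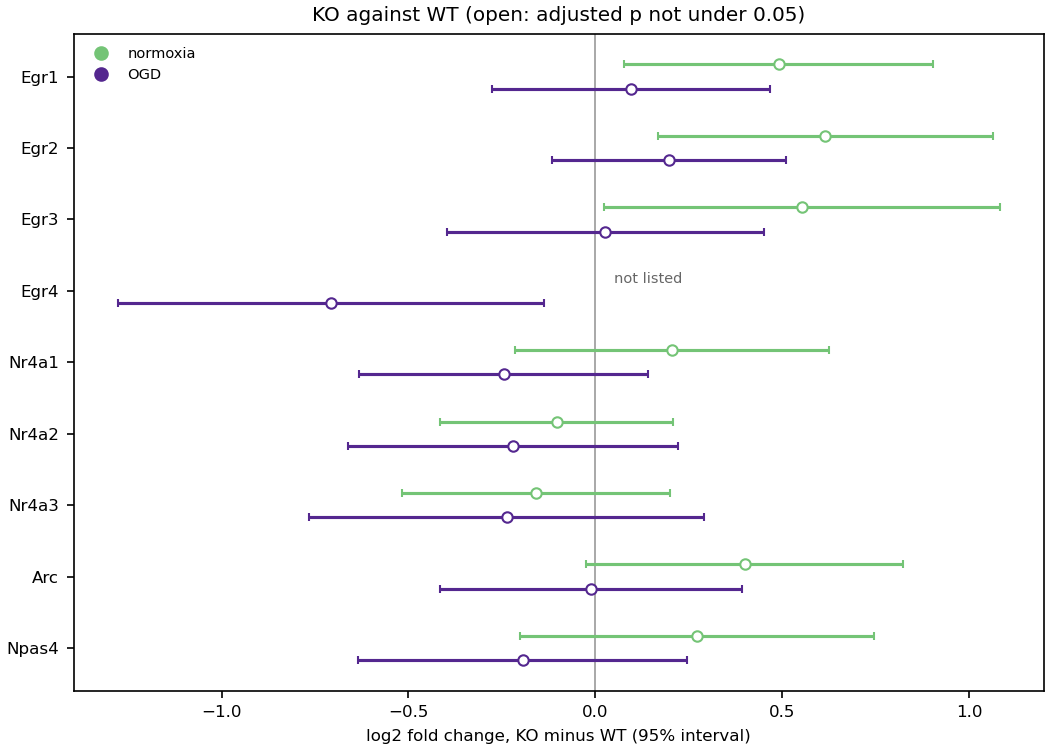
Log2 fold change of each member between KO and WT (horizontal axis) in normoxia and under OGD, with 95% intervals, all points open because no adjusted p was under 0.05. In normoxia the intervals of Egr1, Egr2 and Egr3 lie above 0, and under OGD that of Egr4 lies below 0.

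The third question was whether the response to OGD differs between genotypes. The response was taken as the OGD value minus the normoxia value of the library with the same number, on a scale common to all 20 libraries. For the 8 members listed everywhere the mean response was smaller in KO than in WT, by a median of 0.44 on the log2 scale, where 51.5% of all 13688 genes were smaller in KO and their median difference was -0.01. None of the 8 differences was called (adjusted p = 1.00 for each, limma), 0 of 13688 genes were called, and 0.643% of genes (88) but none of the members had an unadjusted p under 0.05. The 8 genes come from the same 10 pairs of libraries, so they are not 8 separate observations. The differences of KO minus WT were -0.56 for Egr3 (95% interval -1.41 to 0.28), -0.47 for Npas4 (-1.23 to 0.29), -0.47 for Egr2 (-1.14 to 0.20) and -0.46 for Nr4a1 (-1.05 to 0.14). Those of Arc (-0.43, from -1.09 to 0.24), Egr1 (-0.40, from -1.06 to 0.26), Nr4a2 (-0.12, from -0.74 to 0.50) and Nr4a3 (-0.08, from -0.84 to 0.68) were smaller.

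Single pairs differed more than the genotypes did. KO number 3, the only one of batch 2, had the lowest response of the 5 KO pairs for Egr1 (1.71, the others 2.33 to 3.44), Egr2 (1.68), Nr4a1 (2.12) and Arc (1.30). This pair stood apart over genes at large, not only in the members. Over 12992 genes, the OGD and normoxia deviations of KO number 3 from their group means had r = -0.79. The other KO pairs had r from -0.29 to -0.07, and WT number 3 had -0.64. Without KO number 3 the KO minus WT differences were -0.12 for Egr1, -0.16 for Arc, -0.24 for Nr4a1, -0.34 for Egr2, -0.35 for Npas4 and -0.50 for Egr3. Other numbers moved some of the differences by over 1.5 times as well. Npas4 ran from -0.77 without KO number 1 to -0.18 without WT number 1, Egr3 from -0.86 without WT number 1 to -0.34 without WT number 3, and Egr2 reached -0.23 without WT number 2. Nr4a1 was at -0.69 without KO number 1 and Arc at -0.69 without KO number 4, whose removal also moved Npas4 and Egr3. Within batch 3, with 4 WT and 3 KO numbers, the differences ran from -0.58 for Egr3 and -0.44 for Nr4a1 to -0.24 for Egr1 and -0.10 for Arc. Egr1 responses in the WT pairs were 2.93, 3.49, 3.66, 2.65 and 3.35. In batch 1, number 1 of each genotype had the highest Npas4 response of its genotype (2.92 in WT, 2.48 in KO) and the lowest Egr3 response (-0.13 and -0.10). Nr4a3 ranged from -1.43 in KO number 5 to 1.02 in WT number 1, and it was higher under OGD in 2 of 5 WT pairs and 3 of 5 KO pairs. Egr1, Egr2, Nr4a1, Nr4a2, Arc and Npas4 were higher under OGD in 5 of 5 pairs of each genotype, and Egr3 in 4 of 5.

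**Figure D4:**
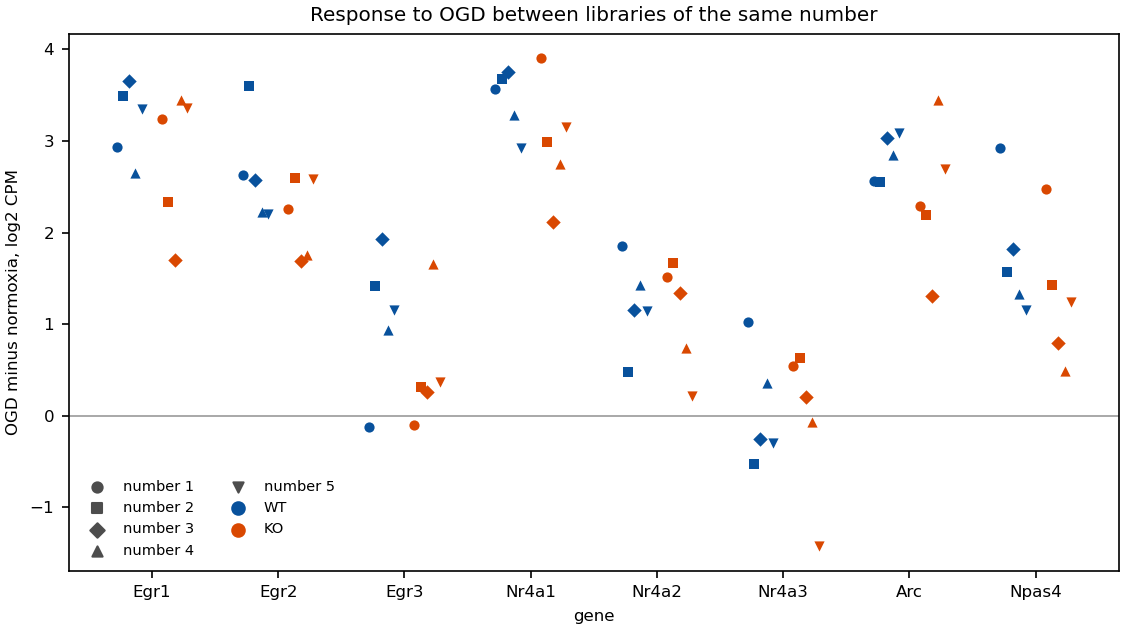
Response to OGD of each of the 8 members listed in all tables (vertical axis, OGD minus normoxia in log2 CPM) for each pair of libraries of the same number, WT on the left and KO on the right of each gene, with a symbol per number. KO number 3 (diamond) is lowest among KO pairs for Egr1, Egr2, Nr4a1 and Arc, and KO number 5 lies at -1.43 for Nr4a3.

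Members also differed in which of them moved together from library to library, measured over the 20 libraries after each group's mean was taken off. Egr1 and Arc had a Pearson r of 0.81 (0.83 over the 10 normoxia libraries, 0.79 over the 10 OGD libraries), and Arc and Egr3 one of 0.69. Nr4a2 and Nr4a3 had an r of 0.90 (0.92 and 0.88), although only the first rose under OGD. Nr4a1 and Npas4 had an r of 0.80 (0.77 and 0.85), while Nr4a1 was also related to Egr1 at 0.65 and Npas4 to Nr4a2 at 0.63. Some pairs were near 0 or negative, among them -0.26 for Egr1 and Nr4a3, -0.05 for Nr4a3 and Arc, and 0.10 for Arc and Npas4, and others lay between, such as 0.57 for Nr4a3 and Npas4 and 0.54 for Egr1 and Egr3. These libraries share depth, batch and, in pairs, number, so the values are descriptions.

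**Figure D5:**
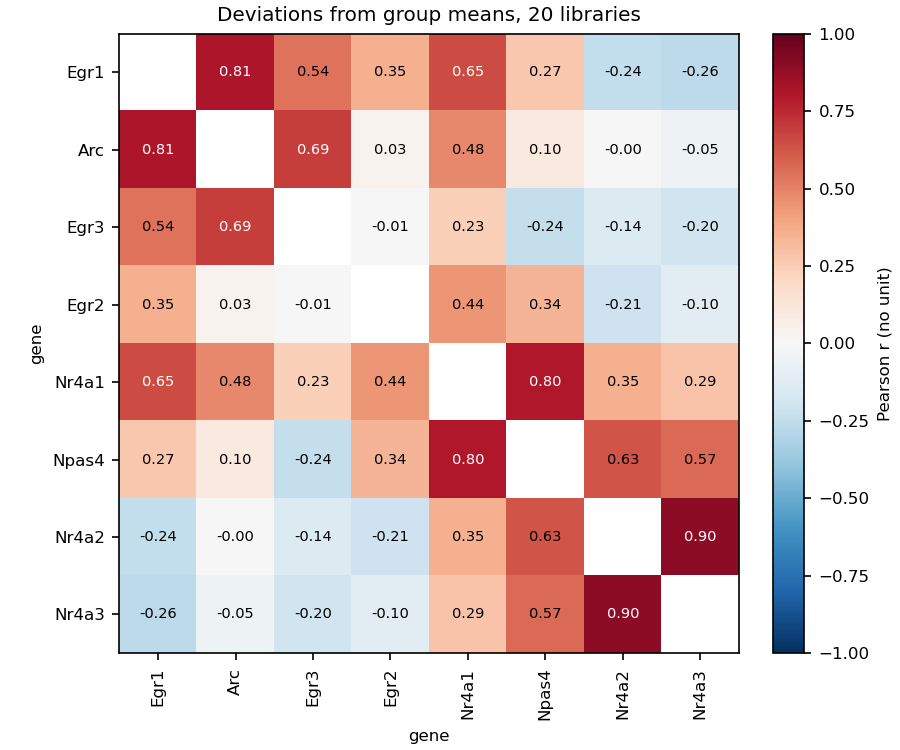
Pearson r between members (both axes) of the deviations of log2 CPM from the group mean over 20 libraries, on a colour scale from -1 to 1. The highest value is 0.90 for Nr4a2 and Nr4a3, Egr1 and Arc are at 0.81, and Nr4a1 and Npas4 at 0.80.

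Among 12692 genes with a mean of at least 1 log2 CPM, the gene closest to each member in these deviations was found. Fosb (r = 0.88) and Junb (0.86), which encode subunits of the AP-1 transcription factor, were among the 3 closest to Nr4a1, and they rose by 3.88 and 2.56 in WT. Bdnf, the gene of a neurotrophin that activity induces, was closest to Nr4a3 (0.90), ahead of Nr4a2, and like Nr4a3 it showed no called change under OGD (-0.27 in WT, adjusted p = 0.360, limma, and -0.20 in KO, adjusted p = 0.555). Gm26930 (0.95) was closest to Nr4a2, Gm36955 (0.89) to Npas4 and Gm28042 (0.88) to Egr1, none of them on the member's chromosome. Egr2 was closest to Plaa (0.85), Egr3 to Osbpl7 (0.86) and Arc to Zfp52 (0.83), with Egr1 second. Each r is among the highest picked from 12692 genes over only 20 libraries, which selects for high values, and none was tested.

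Of the other immediate early genes, 20 of the 25 listed in WT rose and none fell, with a median log2 fold change of 1.54. In KO 21 of 26 rose and none fell, with a median of 1.34. Over all genes 21.6% rose in WT and 21% in KO. The 5 not called in each genotype include Fosl2, an AP-1 subunit (0.03 in WT and -0.20 in KO), and Klf6, a zinc finger factor (0.09 and -0.10), both named after their values were seen. The largest changes in WT were Fosb (3.88), Atf3 (2.96), a stress-induced bZIP factor, and Klf4 (2.96), a zinc finger factor. In KO they were Fosb (2.92), Atf3 (2.85) and Jun (2.75), another AP-1 subunit. None of these genes was called between genotypes in either condition.

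Most of the 16 upstream transcription factors and coactivators showed no called change. In WT 4 rose and 2 fell, and in KO 4 rose and 3 fell, with a median of 0.11 in each, so the number called was near the share over all genes (44.3% in WT and 40.9% in KO). Srf itself rose by 2.00 (SE 0.18, adjusted p = 3.91e-08, limma) in WT and 1.77 (SE 0.15, adjusted p = 6.23e-08) in KO. Its partner factor Elk3 rose by 1.08 and 0.93, and the CREB coactivator Crtc2 by 1.06 and 1.15. Those that fell include Mrtfb (-0.93 in WT and -0.84 in KO), named after its value was seen.

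Of 21 genes for the calcium and ERK signalling that feeds into these promoters, 9 fell and 1 rose in each genotype, with medians of -0.39 and -0.44. Counted in both directions, the number called was again near the share over all genes (44.3% and 40.9%). Calls over all genes were split more evenly: 3244 of 14235 fell and 3069 rose in WT. In KO 2863 of 14375 fell and 3021 rose. Camk4, a nuclear kinase of the CREB pathway, fell by 1.25 in WT and 1.35 in KO. Camkk2, an activating kinase of Camk4, fell by 1.10 and 0.97, Rps6ka3, an ERK-activated kinase, by 0.90 and 0.74, and Grin1, the obligatory NMDA receptor subunit, by 0.79 and 0.98. In WT the gene that rose was Rasgrf1 (0.46), a Ras exchange factor, named after its value was seen.

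Of the 7 corepressors and partners, Nab2, an EGR corepressor that is itself an EGR target, rose by 2.38 in both genotypes (adjusted p = 1.46e-07 in WT and 2.82e-07 in KO, limma). Its paralogue Nab1 was at 0.48 (adjusted p = 0.0522, and 0.0266 with the replicate number as a block) in WT and 0.27 (adjusted p = 0.370) in KO. Rxra, a receptor that pairs with Nr4a1 and Nr4a2, rose by 0.79 and 0.81, Rxrb was at -0.08 and -0.05, and Rxrg was at -0.55 (adjusted p = 0.0257) and -0.33 (adjusted p = 0.287). The Rxrg call in WT was lost in batch 3 (adjusted p = 0.152) and without any one of OGD_WT libraries 1 and 4 and N_WT libraries 1, 3 and 5, and Nab1 was called in WT without OGD_WT library 5 or N_WT library 4. Without OGD_KO library 5, Nab1 (0.53) and Rxrg (-0.57) were called in KO. Arnt, a partner of Npas4 and of hypoxia-inducible factors, rose by 0.69 and 0.68, while Arnt2 was at -0.28 and -0.29, neither called in the main fit. Arnt2 was called lower on the deposited values (adjusted p = 0.0130 in WT and 0.0245 in KO, limma). It was also called when scaled to library totals (-0.56 and -0.58, adjusted p = 0.00277 and 0.0120), in WT without OGD_WT library 2 and in KO without N_KO library 4. The KO calls of Rxra and Arnt were lost in batch 3 (adjusted p = 0.151 and 0.0924, limma) and when scaled to library totals (adjusted p = 0.0535 and 0.118).

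The 25 activity-regulated effector genes, several of them reported targets of the members, went in both directions, as genes did over the whole tables (44.3% called in WT and 40.9% in KO). In WT 9 rose and 5 fell, and in KO 5 rose and 7 fell, with medians of 0.23 and 0.12. Gem, a small GTPase that limits calcium channels, rose by 2.77 and 2.63. The largest rises in the list, 3.07 in WT and 2.93 in KO, fell outside the rule for naming genes. Rasgrp1, an exchange factor that activates Ras, fell by 1.53 and 1.81, and Rgs4, a regulator of G-protein signalling, by 1.31 and 1.46. Of the 10 genes whose products work with Arc at the synapse, none rose and 3 fell in each genotype, with medians of -0.02 and -0.03. Counted in both directions, that is fewer than the 44.3% and 40.9% called over all genes. Those 3 were Camk2a (-0.83 in WT and -0.91 in KO) and Camk2b (-0.51 and -0.62), the calcium/calmodulin kinase subunits, and Dnm1 (-0.70 and -0.78), the neuronal dynamin of endocytosis. Within batch 3 the KO calls of Camk2b (adjusted p = 0.317, limma) and Dnm1 (adjusted p = 0.0930) were lost. Between genotypes none of the genes in these 6 lists was called in normoxia or under OGD.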

How the data were processed

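The authors deposited 4 tables of log2 CPM, 1 per comparison, each with 10 libraries and 14152 to 14375 genes. The genome build was mm10, per the submitters' processing notes, and the libraries were stranded and made from total RNA, per the labels' protocols. The aligner, counter and normalization are not given in the sources used here. Within each group of 5 libraries the deposited values were found clipped at the 10th and 90th percentiles, the lowest being 0.6 of itself and 0.4 of its neighbour, and likewise the highest. This was undone, after which at least 99.9% of values up to 500 reads were whole reads within 0.05, against 45.5% to 92.8% of values as deposited. A gene with 0 reads was worth between 3.56 and 4.96 reads in the log, so fold changes are on a log2(CPM + constant) scale and understate those of low genes.

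Each comparison was fitted on its own table with limma 3.58.1 (R 4.3.3, intensity trend, 5 against 5 libraries) and adjusted by Benjamini-Hochberg over all its genes, called at adjusted p under 0.05. The response difference between genotypes was fitted on OGD minus normoxia differences of recovered reads (log2 CPM with a prior count of 2) over 13688 genes. Exact permutation tests were two-sided. The scripts were tested on simulated data. Scaling of recovered reads used trimmed means of M-values. Alternatives were the deposited values, other prior counts, a level filter, no trend, each library left out, the replicate number as a block and batch, and, added after the data were seen, scaling to library totals.

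N and OGD libraries of a number share the genotype and batch labels, so they were treated as pairs in the response difference and the block. Their deviations did not rise and fall together (r from -0.64 to 0.06 in WT and from -0.79 to -0.07 in KO). The mean r was -0.22 in WT and -0.29 in KO, against 0.04 and 0.06 between libraries of different numbers. The values therefore do not bear out the pairing. Between genotypes numbers share a batch only for number 1, so they pair nothing there. The labels call the libraries biological replicates, but nothing says whether they came from separate litters, so p-values measure only the spread between these libraries.

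The members and the gene lists were chosen with earlier results of these data known. Named were all members, lists of up to 7 genes in full, and the genes closest to each member. From each longer list came up to 3 called genes of largest change among those with a mean of at least 1 log2 CPM.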

Additional observations from a re-analysis of the deposited data

Results flagged for a closer look

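Within groups of 5 libraries, the values of the 9 genes were checked for a library standing apart from the other 4 by Dixon's test, in 35 groups, where chance alone gives 1.75 on average, and 4 were found. Nr4a3 in N_WT library 1 was at 7.03 log2 CPM, the other 4 between 7.70 and 7.82. Nr4a2 was low in the same library, at 5.41 against 5.72 to 5.83, and the Nr4a3 change in WT was -0.10 without it. Npas4 in N_KO library 1 was at 2.92 against at least 3.78. Egr3 in N_KO library 4 was at 0.55, on 10 reads, against 1.43 to 1.59. The calls of the members in the 2 OGD comparisons stayed as they were when each of these libraries was left out.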

How the results depend on the processing

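The 8 called members in WT and 6 in KO kept their direction and call in every alternative run, except that Egr4 falls below the level filter (7 called) and Egr3 in KO passed on the deposited values (7 called). Leaving out each library in turn gave 8 in WT and 6 in KO throughout. With the replicate number as a block 8 and 6 were called as well. No member was called between genotypes or in the response difference in any alternative, the block included. With 5 pairs in each genotype the block cannot change the estimate of the response difference (Egr3 -0.56 either way), only its error. Reversals concerned values that were not called. Nr4a3 in WT was -0.19 in batch 3, -0.23 scaled to totals and -0.10 to 0.17 over single libraries left out, and in KO it was 0.0503 on deposited values and -0.17 to 0.21 over libraries left out. Nab1 in KO was -0.0228 scaled to totals, and Rxrb in KO ran up to 0.0399 over libraries left out. In normoxia, batch as a covariate gave -0.00483 for Nr4a1 and 0.00506 for Nr4a2 between genotypes. Under OGD, Arc was 0.00304 on deposited values, 0.19 in batch 3 and 0.14 with the batch covariate, and over libraries left out Arc ran from -0.14 to 0.13 and Egr3 from -0.12 to 0.11. The response difference ran from -0.30 to 0.10 for Nr4a2 and from -0.24 to 0.27 for Nr4a3 over numbers left out. Genes called in KO under OGD numbered 2341 in batch 3, with fewer libraries. Genotype calls in normoxia (5) became 9 on deposited values, 3 with the level filter, 3 with the block, 2 in batch 3, 11 with the batch covariate and 3 to 5 over libraries left out. Those under OGD (4) became 12 on deposited values, 1 with prior count 0.5, 2 with the block, 17 with the batch covariate, 2 scaled to totals and 1 to 7 over libraries left out. The cause was not tested. The planned edgeR and DESeq2 fits on recovered reads were not run. The deposited values are on a log2 scale, and the recovered reads were fitted only with limma. Depth limits Egr4, Egr3 and Egr2, with as few as 1, 9 and 9 reads in a library.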
